A study of Mus musculus with 8 samples.

Results

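Hox genes encode homeodomain transcription factors that give cells their address along the body. They sit in 4 clusters, Hoxa on mouse chromosome 6, Hoxb on 11, Hoxc on 15 and Hoxd on 2, and are numbered by paralog from 1 at the anterior end to 13 at the posterior end. Fibroblasts and other somatic cells keep the Hox code of the place they came from, and pluripotent cells hold the same clusters silent under Polycomb repression with some bivalent marking. Loss of a somatic Hox code can be followed when somatic cells are reprogrammed.

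The members were all genes whose single symbol in the platform annotation is Hoxa, Hoxb, Hoxc or Hoxd followed by a number. There were 37 of the 19938 genes measured, 10 in Hoxa and 9 in each of Hoxb, Hoxc and Hoxd, each read by 1 probe set. Hoxb8 is not analysed here, since the probe set listed for it also carries the symbol Hoxb7. Of the 37, 16 had a mean at or above that of the median gene (4.70 on the log2 scale), among them 6 of 10 Hoxa genes and 0 of 9 Hoxd genes. Probes differ in brightness, so levels of different Hox genes were not set against each other.

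The cells were 1 clone of mouse pre-iPSCs, partly reprogrammed somatic cells short of full pluripotency, labelled MaF pre-iPSC9P2. They grew on feeder cells in medium for mouse embryonic stem cells, and from day 2 this medium held vitamin C at 50 µg/ml in 1 group and none in the other. RNA was taken on days 3, 4, 5 and 6 after the feeder cells had been removed, which gave 4 untreated arrays and 4 vitamin C arrays, 1 for each day. The labels do not spell out MaF, the body site of the starting cells or the kind of feeder cell, and they do not say that the days were separate cultures, so the p-values reflect how these arrays scatter, and that scatter may be technical. A single day has no replicate, and 8 arrays set the precision.

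Pou5f1, a core factor of pluripotency, lay between 11.9 and 12.1 in every array. Nanog rose from 5.53 to 6.77 without and from 7.03 to 8.87 with vitamin C. Of 12 markers of pluripotent cells, only Esrrb, Dppa4 and Zfp42 lay below the median gene (4.70) in every untreated array. With vitamin C they reached 5.50, 5.45 and 4.72 on day 6. Markers of feeder cells or fibroblasts were read as well. The mean of 27 such markers ran from 6.09 to 7.02 in untreated and from 5.99 to 6.51 in vitamin C arrays on the log2 scale. Single markers ranged from 2.27 for Fap to 11.2 for Fn1, both in untreated arrays. Only Fap, Dpt and Ogn lay below the median gene (4.70) in every array. In bulk RNA, fewer cells that carry Hox RNA cannot be told apart from less Hox RNA in each cell. Markers of other cell types moved as well. Of 12 epithelial markers 12 were higher with vitamin C, with a median difference of 0.97. In limma 6 of them passed, against 0.537% of all genes higher. Over time with vitamin C their median slope was 0.48, and 9 rose past the threshold, against 5.25% of all genes. Without vitamin C it was 0.24, and 3 rose past it, against 0.782%. Of 9 neural markers 7 were lower with vitamin C, with a median difference of -0.26 and 0 past the threshold in limma. At an unadjusted p under 0.05, 4 were lower and 0 higher, against 6.52% and 6.18% of all genes. Over time with vitamin C, Stmn2 (-0.52 per day) and Pax6 (-0.24) of the neural markers fell and Map2 (0.51) rose. Of 9 blood cell markers Csf1r (1.09 per day, adjusted p = 0.00147) and Cd68 (0.79, adjusted p = 0.0102) rose with vitamin C and Laptm5 (-0.33, adjusted p = 0.0254) fell, and the median difference between treatments was 0.01. Of 10 endothelial markers Pecam1 was higher with vitamin C over all days (0.81, adjusted p = 0.0321) and Tek fell over time (-0.35, adjusted p = 0.0328), with a median difference of -0.06. Their part in the Hox results was not tested.

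The first question was how the Hox genes moved from day 3 to day 6 in cells with vitamin C. A falling slope passed the threshold for 7 of 37 genes (18.9%) and a rising one for 0, against 3.39% of all genes that fell and 5.25% that rose (8.64% in either direction). They were Hoxa2, Hoxa6, Hoxa9, Hoxb2, Hoxc4, Hoxc8 and Hoxc10, so 3 lay in Hoxa, 1 in Hoxb, 3 in Hoxc and 0 in Hoxd. The count was 1 without the vitamin C array of day 6. Calls over all genes fell from 1722 to between 270 and 1680 with an array left out. With the mean of 27 feeder or fibroblast markers as a covariate the Hox count was 0, where 11 of all genes passed. The median slope of the 37 was -0.17 per day on the log2 scale, against -0.02 for all genes, and 29 of 37 slopes were below 0 and 8 above. At an unadjusted p under 0.05, 16 fell and 0 rose (43.2% of the members, against 13.4% of all genes for falls and 11.4% for rises). The feeder or fibroblast markers fell in the same arrays, with a median slope of -0.19 and 8 of 27 past the threshold.

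Hoxc10, a gene of the lumbar region and hindlimb read by probe set 10427280, changed most. Its log2 values with vitamin C were 5.92, 5.71, 5.67 and 4.42 on days 3 to 6, and without vitamin C 6.21, 6.00, 5.83 and 5.67. The first 3 days declined side by side in both groups, and the vitamin C array of day 6 lay far below all other arrays. The fitted slope was -0.45 ± 0.10 per day (log2, moderated SE, limma adjusted p = 0.0220), or 0.390 of the starting level over 3 days, against -0.18 ± 0.10 untreated (adjusted p = 0.408).

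Hoxa9, a gene of the lower trunk that is also active in blood progenitors, is read by probe set 10544788. It gave 5.89, 5.75, 5.23 and 4.92 with vitamin C, and 5.55, 5.54, 5.37 and 5.67 without. The vitamin C arrays started above and ended below every untreated array. The slope was -0.34 ± 0.07 (adjusted p = 0.0116) against 0.02 ± 0.07 untreated (adjusted p = 0.922).

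Hoxb2, which patterns the hindbrain, is read by probe set 10380660 and gave 5.62, 5.59, 4.99 and 4.65 with vitamin C against 5.53, 5.43, 5.14 and 5.01 without. Both groups went down and they overlapped on the early days. Its slope of -0.35 ± 0.07 passed (adjusted p = 0.0108), while that of untreated cells, -0.19 ± 0.07, did not (adjusted p = 0.192). Hoxc4, a gene of the neck region on probe set 10427303, gave 5.60, 5.52, 5.02 and 4.88 with vitamin C and 5.44, 5.64, 5.66 and 5.70 without. The 2 groups lay together on days 3 and 4 and apart on days 5 and 6. Its slope was -0.26 ± 0.06 (adjusted p = 0.0270) against 0.08 ± 0.06 (adjusted p = 0.562).

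Hoxc8, a gene of the thoracic region on probe set 10427290, gave 5.26, 4.81, 4.00 and 4.29 with vitamin C and 5.18, 5.35, 5.02 and 4.63 without. Its lowest array was that of day 5 with vitamin C, and the day 6 array was higher again. Hoxa6, on probe set 10544774, gave 5.36, 5.21, 4.93 and 4.66 with vitamin C and 5.05, 5.12, 4.93 and 4.72 without, so that the treatments differed on day 3 and met from day 5 on. Hoxa2, needed for the skeleton of the second pharyngeal arch, gave 3.91, 3.83, 3.03 and 3.12 with vitamin C and 3.43, 3.22, 2.93 and 3.21 without on probe set 10544751. Its fall with vitamin C began from a higher level, and both groups ended together. The mean level of Hoxa2 was 3.33, well below the median gene (4.70). The slopes of the 3 genes were -0.37 ± 0.10, -0.24 ± 0.06 and -0.32 ± 0.09 with vitamin C (adjusted p = 0.0405, 0.0369 and 0.0454).

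**Figure D1:**
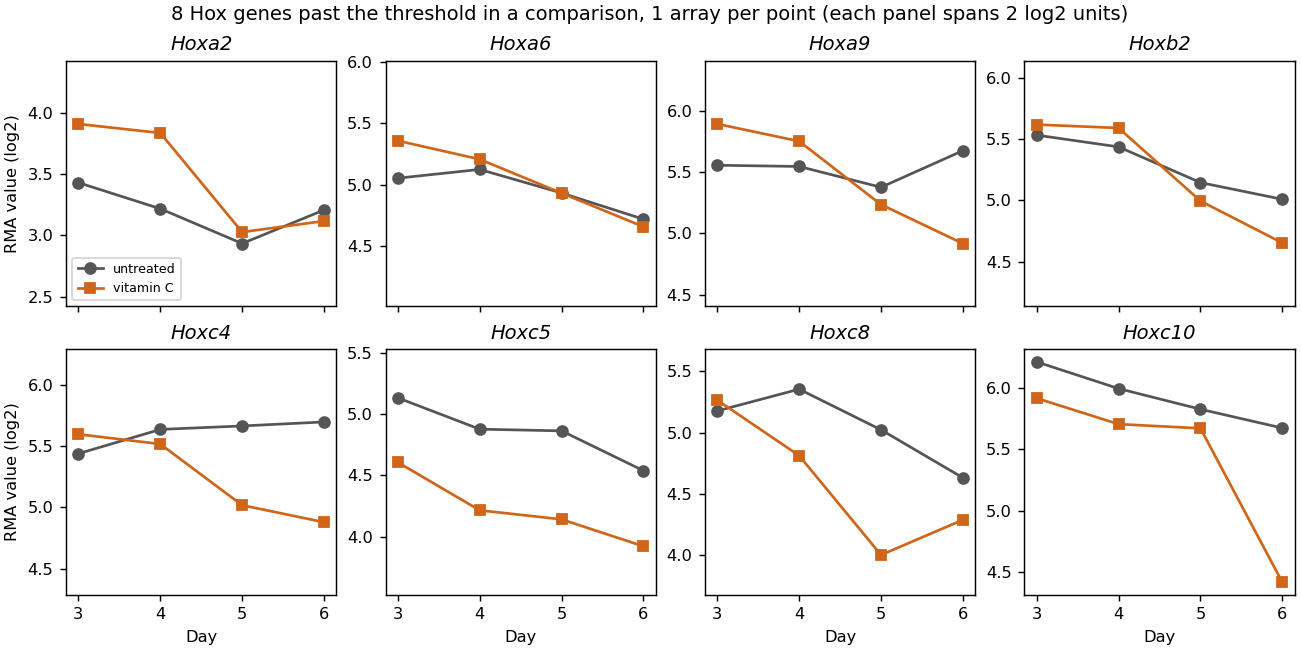
Log2 RMA values (vertical axis) of the 8 Hox genes past the threshold in a comparison, by day (horizontal axis), untreated in grey circles and vitamin C in orange squares, 1 array per point. Hoxc10 drops to 4.42 in the vitamin C array of day 6, while Hoxc5 lies lower with vitamin C on each day.

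These calls leaned on single arrays. Without the vitamin C array of day 6, 1 of the 7 genes passed, Hoxc8, and the slope of Hoxc10 shrank to -0.12 per day (adjusted p = 0.574). The count was 4 without the vitamin C array of day 3, 4 without that of day 5, 4 without the untreated array of day 5, and 2, Hoxa9 and Hoxb2, from the 4 vitamin C arrays alone. Calls over all genes fell too, from 1722 to between 270 and 1680 with an array left out. With the 27-marker mean as a covariate, 0 of 37 passed in limma and 6, all falling, had an unadjusted p under 0.05, where 11 of all genes passed. The slopes of the 7 genes in that fit ran from -0.46 for Hoxa2 to -0.14 for Hoxa6, and the median of all 37 was -0.17, as without the covariate.

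The RefSeq table (GRCm38.p6) held promoter windows for 21 of the 37 members, and for 4 of the 7 genes that fell. Their 250 bases up to the RefSeq start are shown because Polycomb complexes favour CG-rich DNA, and the 4 windows differ widely in CG content. Capitals mark each CG pair, and each sequence reads 5′ to 3′ towards the gene.
Hoxa2, chr6:52164832-52165081, minus strand: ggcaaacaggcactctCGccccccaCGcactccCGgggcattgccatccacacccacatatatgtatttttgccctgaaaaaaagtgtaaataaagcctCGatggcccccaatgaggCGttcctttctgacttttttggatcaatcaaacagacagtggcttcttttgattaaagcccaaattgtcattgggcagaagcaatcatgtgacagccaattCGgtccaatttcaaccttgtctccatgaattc
Hoxa6, chr6:52208673-52208922, minus strand: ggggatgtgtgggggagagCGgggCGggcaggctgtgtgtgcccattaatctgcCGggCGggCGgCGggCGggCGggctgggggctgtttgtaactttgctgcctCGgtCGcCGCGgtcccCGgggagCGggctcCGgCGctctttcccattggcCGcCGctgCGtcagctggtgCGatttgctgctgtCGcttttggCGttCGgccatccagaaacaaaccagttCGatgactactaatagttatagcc
Hoxa9, chr6:52227371-52227620, minus strand: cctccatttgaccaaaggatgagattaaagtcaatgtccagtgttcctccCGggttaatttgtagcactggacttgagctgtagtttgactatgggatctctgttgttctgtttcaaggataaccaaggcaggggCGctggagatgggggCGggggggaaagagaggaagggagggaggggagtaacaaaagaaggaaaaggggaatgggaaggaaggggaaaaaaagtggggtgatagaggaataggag
Hoxc4, chr15:103034145-103034394, plus strand: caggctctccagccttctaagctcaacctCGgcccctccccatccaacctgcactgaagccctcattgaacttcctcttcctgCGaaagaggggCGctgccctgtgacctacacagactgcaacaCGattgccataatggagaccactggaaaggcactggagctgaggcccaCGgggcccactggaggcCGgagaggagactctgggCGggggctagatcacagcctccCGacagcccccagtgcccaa

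These windows held 6 CG pairs for Hoxa2, 24 for Hoxa6, 3 for Hoxa9 and 8 for Hoxc4. Over the 23 windows of members the median was 13 pairs, from 2 to 35, against a median of 6 in the 32851 windows of all genes in the table. Both high and low counts thus stood among the genes that fell. The motif TATAAA, searched on both strands, occurred in 3 of the 23 windows (13.04%), against 12.4% of all windows. TGATNNAT, which paired Hox and Pbx proteins can bind, occurred on either strand in 3 of the 23 (13.04%), against 7.68% of all. Of the 4 printed windows only that of Hoxa2 held it.

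The second question was how Hox genes moved without vitamin C. In limma 0 of 37 slopes passed, against 1.75% of all genes, 0.782% up and 0.968% down. At an unadjusted p under 0.05 there were 3 up and 3 down, against 8.39% and 8.66% of all genes. Of these 6, Hoxb9 (-0.27 per day, adjusted p = 0.0875), Hoxb2 and Hoxc5 (-0.18, adjusted p = 0.177) pointed down, and Hoxa13 (0.27, adjusted p = 0.122), Hoxd3 (0.17) and Hoxd1 (0.15) pointed up. The median slope was -0.05, and 20 of 37 were below 0. By cluster the median ran from -0.14 in Hoxb to 0.10 in Hoxd. The feeder or fibroblast markers had a median slope of -0.32 here and 9 of 27 fell, among them the collagen gene Col1a1 (-0.52, adjusted p = 0.00431) and Thy1 (-0.37, adjusted p = 0.0292).

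**Figure D2:**
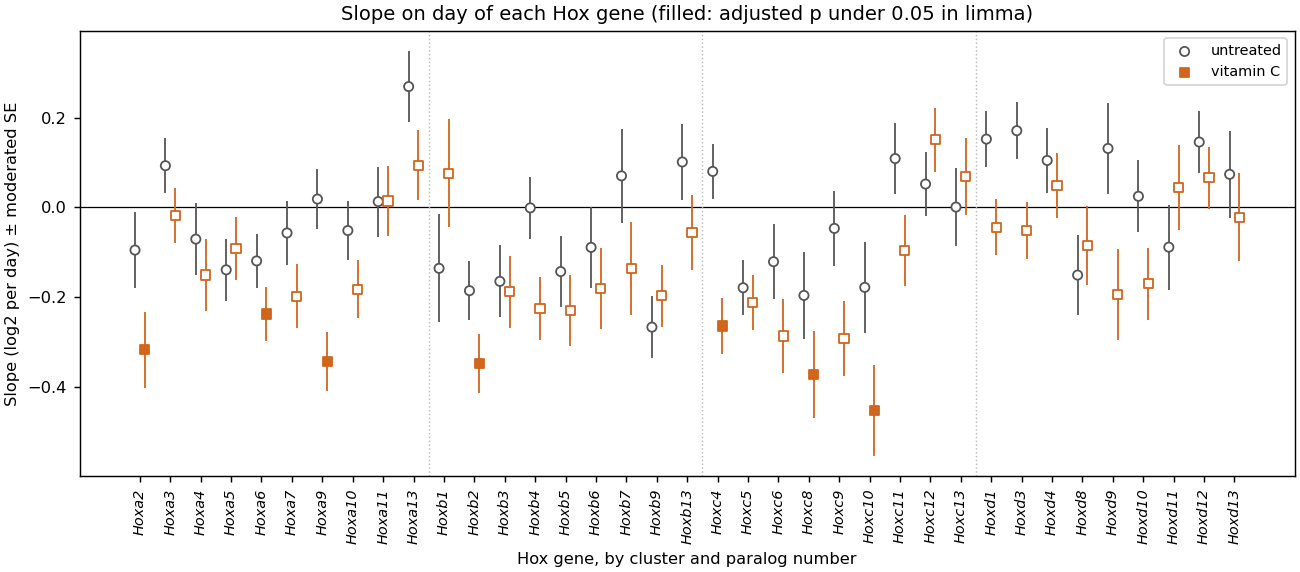
Slope on day in log2 units per day (vertical axis) with the moderated SE as bars, for 37 Hox genes ordered by cluster and paralog number (horizontal axis). Untreated cells are grey circles and vitamin C cells orange squares, with filled symbols past the threshold. The 7 filled symbols all belong to vitamin C and lie between -0.45 and -0.24.

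Whether the 2 slopes differ was tested by itself, and no Hox gene passed. In limma 0.0652% of all genes passed, all with a higher slope under vitamin C, and 0% passed in the other direction. In simulated data this test recovered 1.49% of slope differences of 1 log2 unit over 3 days and 50% of those of 2 units. Of the 37 Hox genes 0 passed, which does not show that the slopes were equal, and 6 had an unadjusted p under 0.05. All 6 pointed to a steeper fall with vitamin C (16.2% of the members, against 5.74% of all genes in that direction): Hoxa9 by -0.36 ± 0.09 per day (adjusted p = 0.203), Hoxc4 by -0.35 ± 0.09 (adjusted p = 0.196), Hoxd9 by -0.33, Hoxb4 by -0.22, Hoxd3 by -0.22 and Hoxd1 by -0.20. The median over all 37 was -0.13, and 29 were below 0. The markers of feeder cells or fibroblasts went the other way in this test, with a median of 0.18 per day and 21 of 27 above 0. A fall past the threshold with vitamin C and none without is therefore not shown to be a difference between the treatments.

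The third question was which Hox genes differed between treatments over all 4 days. Hoxc5 alone passed, and it was lower with vitamin C: 1 of 37 (2.70%) against 0.216% of all genes that were lower and 0.537% that were higher (0.752% in either direction). Hoxc5, a gene of the neck and upper thoracic region next to Hoxc4 and Hoxc6, is read by probe set 10427297. Its log2 values were 5.13, 4.88, 4.86 and 4.54 without and 4.60, 4.21, 4.14 and 3.92 with vitamin C. Each day's vitamin C array was lower than its untreated partner, although the groups overlapped, since the vitamin C array of day 3 lay above the untreated array of day 6. The mean daily difference was -0.63 ± 0.10 (log2, moderated SE, adjusted p = 0.0330), a level 1.55-fold lower, and the SD of the 4 daily differences was 0.08. The call was lost without day 4 (adjusted p = 0.183), without day 5 (adjusted p = 0.206), without day 6 (adjusted p = 0.0780) and with day left out of the model (adjusted p = 0.277). With the marker mean in place of day the difference was -0.39 (adjusted p = 0.385).

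The other members leaned the same way without passing. In all 32 of 37 differences were below 0 (86.5%, against 51.8% of all genes), with a median of -0.12 against -0.01 for all genes. At an unadjusted p under 0.05 there were 7, all lower (18.9%, against 6.52% of all genes lower and 6.18% higher): beside Hoxc5 these were Hoxc10 (-0.50, adjusted p = 0.269), Hoxc8 (-0.45), Hoxc6 (-0.43), Hoxb9 (-0.40), Hoxd10 (-0.40) and Hoxd12 (-0.31). Lower on all 4 days were 8 members (21.6%, against 11.1% of all genes): Hoxa3, Hoxa5, Hoxb9, Hoxc5, Hoxc6, Hoxc10, Hoxd10 and Hoxd12. None of the 37 was higher on all 4 days, against 9.29% of all genes. Only Hoxa3 had all 4 vitamin C arrays below all 4 untreated ones, 1 of 37 against 2.61% of all genes, and 0 of 37 had the reverse, against 2.1%, with a difference of -0.16 (adjusted p = 0.623). The markers of feeder cells or fibroblasts were lower as well, with a median of -0.36, 25 of 27 below 0 and 2 past the threshold.

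Day by day the median over the Hox genes was lowest on days 5 and 6, although single days have no test and the test of a change in the difference over days passed for 0 of 37. Some members were lower from the start: Hoxc5 differed by -0.53 on day 3 and -0.66 on day 4, and Hoxb9 by -0.65 on day 3. On day 4 the Hoxc median was -0.29, with 7 of 9 lower. On day 3 the median of the 37 daily differences was 0.02 and 17 were below 0, and on day 4 it was 0.08 with 15 below 0. On day 5 it was -0.18 with 30 below 0, and on day 6 -0.36 with 32 below 0, while the median of all genes was -0.03 on day 6. Lower on both day 5 and day 6 were 26 of 37 (70.3%), against 35.8% of all genes, and lower on both day 3 and day 4 were 9 of 37 (24.3%), against 27.7%. A difference of at least 2-fold was reached by Hoxc8 on day 5 (-1.02, where 0.266% of all genes were as much lower) and by Hoxc10 on day 6 (-1.26, 0.306%). On days 3 and 4 it was reached by 0 members, against 0.301% and 0.451% of all genes. No member was higher by as much on days 3 to 6, against 0.371%, 0.642%, 0.963% and 1.51% of all genes. From day 3 to day 6 only Hoxc10 with vitamin C changed level by at least 2-fold (-1.50). The share of all genes as much lower was 1.35% with and 1.16% without vitamin C, and as much higher 3.3% and 1.18%. The feeder or fibroblast markers had median differences of -0.51, -0.60, -0.31 and -0.04 on days 3 to 6. On day 6 these markers went both ways, 16 lower and 11 higher, from -1.11 for Ddr2 to 0.999 for Lum, and the part of feeder or fibroblast RNA in the daily Hox differences was not tested.

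**Figure D3:**
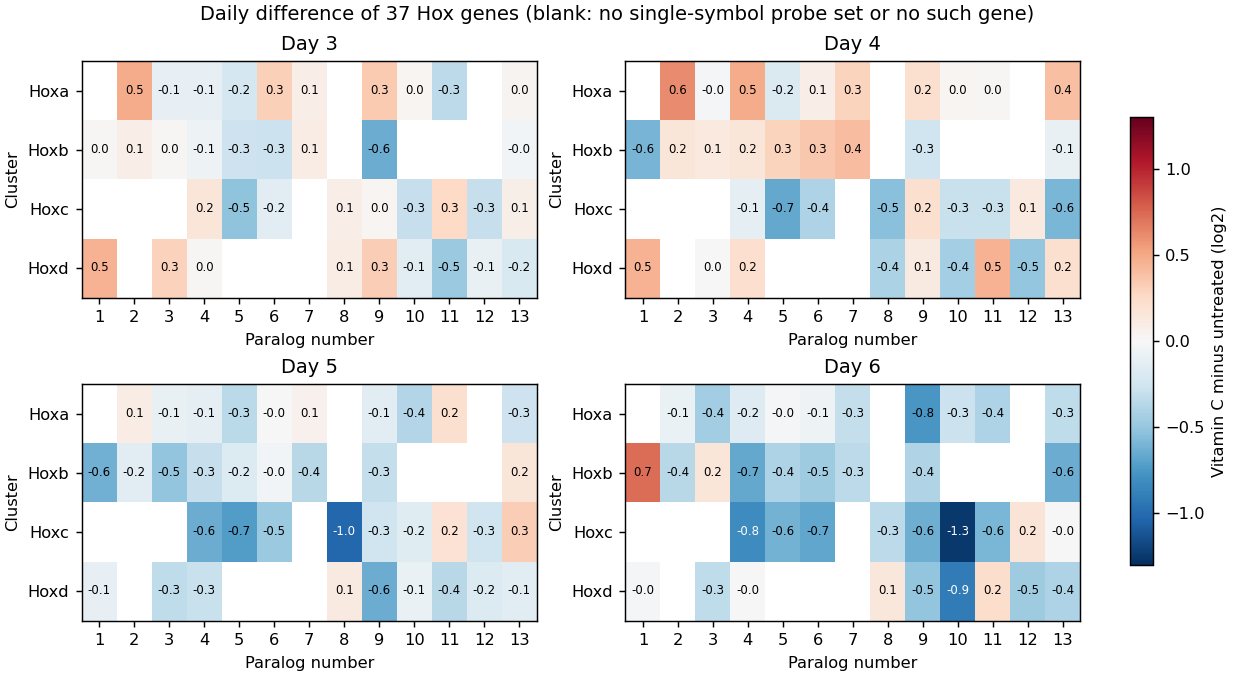
Vitamin C minus untreated on each day (colour and printed number, log2) for 37 Hox genes, with clusters as rows and paralog numbers as columns, 1 pair of arrays per panel. Blank cells hold no measured member. Days 3 and 4 show both signs, and days 5 and 6 hold 30 and 32 values below 0.

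By cluster, Hoxc stood lowest. Its 9 members were all below 0 over the 4 days with a median of -0.36, against -0.07 in Hoxa, -0.12 in Hoxb and -0.09 in Hoxd, and its median daily difference reached -0.62 on day 6. In the Hoxc cluster the neighbours from Hoxc4 to Hoxc10 had differences from -0.63 to -0.17, while Hoxc11, Hoxc12 and Hoxc13 lay at -0.11, -0.06 and -0.05. The mean levels of Hoxc11, Hoxc12 and Hoxc13 were 2.66, 2.70 and 3.36, well below the median gene (4.70), where a fall may not show. Those from Hoxc4 to Hoxc10 ran from 3.88 for Hoxc9 to 5.68 for Hoxc10. Position in the cluster was thus not separated from the level of the probe sets. Hoxb members had a median slope of -0.19 per day with vitamin C, and 8 of 9 pointed down. Hoxa2 had the highest difference of all members (0.27 ± 0.14) and did not pass (adjusted p = 0.467). Hoxa4 (0.02), Hoxa6 (0.08) and Hoxa7 (0.03) also lay above 0. On day 6 all 10 Hoxa genes were lower with vitamin C, by 0.01 to 0.76 on the log2 scale. In Hoxd no gene passed in limma in any comparison, and the median slope with vitamin C was -0.04.

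By paralog number, the median slope with vitamin C was lowest in the middle of the clusters. Of 14 genes of paralogs 4 to 8, 13 pointed down with a median of -0.21, and 3 passed. Of 7 genes of paralogs 1 to 3, 6 pointed down with a median of -0.05, and 2 passed. Of 16 genes of paralogs 9 to 13, 10 pointed down with a median of -0.08, and 2 passed, Hoxa9 and Hoxc10. The difference between these groups was not tested, and paralog number was not separated from the level of the probe sets. Of 16 members at or above the median gene, 15 pointed down with a median of -0.21, and 6 passed. Of 21 members below it, 14 pointed down with a median of -0.05, and 1 passed. Paralogs 10 all pointed down, with Hoxc10 past the threshold and Hoxa10 (-0.18, adjusted p = 0.112) and Hoxd10 (-0.17, adjusted p = 0.225) not. Paralogs 9 did so too, with Hoxa9 past it and Hoxb9 (-0.20), Hoxc9 (-0.29) and Hoxd9 (-0.19) not, and differences between paralogs were not tested. Hoxb1 had the highest daily difference of all members, 0.73 on day 6 after -0.61 and -0.62 on days 4 and 5.

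**Figure D4:**
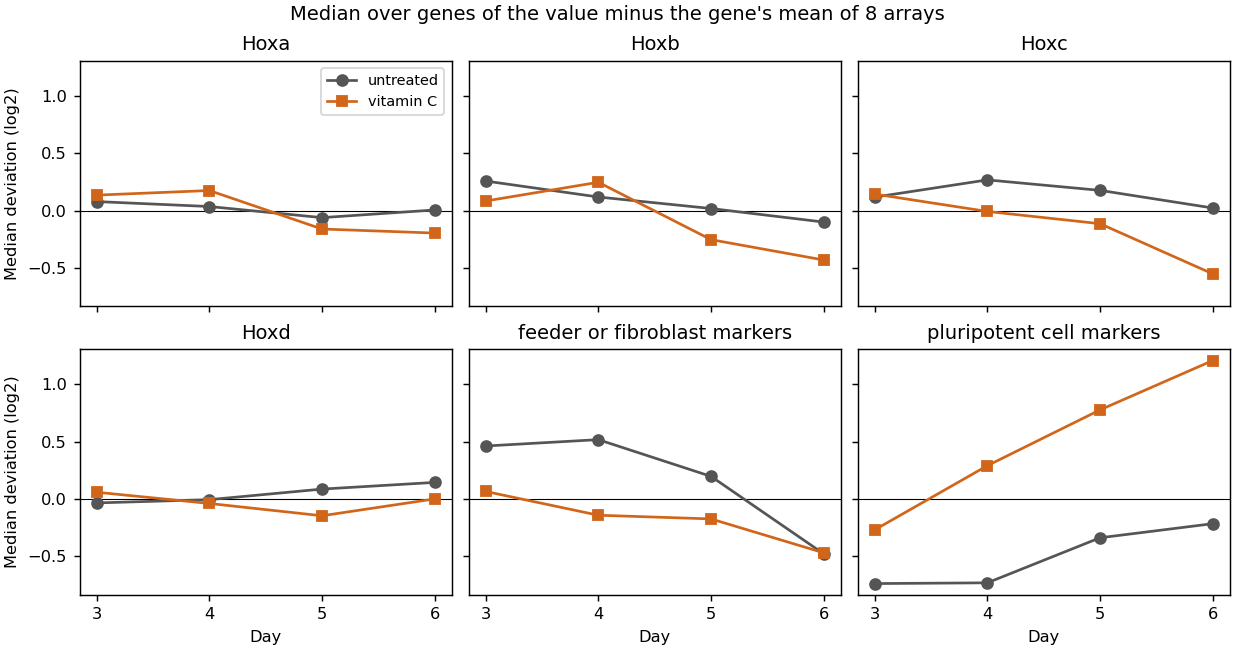
Median over the genes of a set of the value minus that gene's mean of 8 arrays (vertical axis, log2), by day (horizontal axis), untreated in grey and vitamin C in orange. Hoxc reaches -0.55 and Hoxb -0.43 in the vitamin C array of day 6, while the feeder or fibroblast markers end at -0.48 and -0.47 in the 2 treatments.

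Other genes in and around the clusters were looked up after the data had been seen, through the gene order in the RefSeq table. Of 10 genes inside the clusters that are no Hox genes, 0 passed in limma in any of the 4 comparisons. Among them were the microRNA genes Mir10a, Mir10b, Mir196b and Mir615. In each comparison 0 to 1 of the 10 had an unadjusted p under 0.05, where 11.3% to 24.9% of all genes did. Only Mir615 lay above the median gene (4.70). The others lay below it in every array, where a change may not show. Of the 24 nearest measured protein-coding genes, 3 on each side of a cluster, 1 fell with vitamin C, Mtx2 beside Hoxd (-0.36 per day, adjusted p = 0.00746), and 2 rose, Calcoco1 beside Hoxc (0.51) and Calcoco2 beside Hoxb (0.39). Calcoco1 rose without vitamin C too (0.35, adjusted p = 0.0343). These 3 were singled out after their values were seen. The median slope of the 24 was -0.01, and the calls stand beside the 3.39% of all genes that fell and 5.25% that rose.

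Genes that work with Hox proteins or set their expression did not share one direction. The TALE homeodomain cofactors, which bind DNA together with Hox proteins, had 0 of 9 past the threshold in limma in any comparison. In each comparison 0 to 3 had an unadjusted p under 0.05, where 11.3% to 24.9% of all genes did. Meis1, a TALE gene, had a slope of -0.09 in both treatments. Of 28 Polycomb genes, which encode the repressors of Hox clusters, 1 fell and 2 rose with vitamin C over time, near the shares of all genes (3.39% and 5.25%). The H3K27 methyltransferase gene Ezh2 fell by 0.25 per day (adjusted p = 0.0272), and its partner Jarid2 (0.24, adjusted p = 0.0432) and the reader Cbx7 (0.52, adjusted p = 0.00224) rose. None of the 28 passed in the other 3 comparisons in limma. In each of those 3 to 6 had an unadjusted p under 0.05, where 11.3% to 17% of all genes did. Of 14 genes of trithorax complexes and H3K27 demethylases, which keep Hox genes active, Kmt2c (0.32) and Ash2l (0.30) rose with vitamin C, where 5.25% of all genes rose, and Kmt2a did not pass (0.10, adjusted p = 0.329). None of these 14 passed in the other 3 comparisons in limma. In each of those 0 to 2 had an unadjusted p under 0.05, where 11.3% to 17% of all genes did.

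Retinoic acid is a classical inducer of anterior Hox genes, and caudal factors act on posterior ones. Of 23 such genes 5 rose with vitamin C over time and 0 fell, where 5.25% of all genes rose and 3.39% fell. They were Cyp26a1, which breaks down retinoic acid (0.90 per day, adjusted p = 0.000479), Dhrs3 (0.77), Aldh1a3 (0.76), the receptor gene Rarb (0.59) and the carrier gene Rbp4 (0.49). Cyp26a1 rose in untreated cells too (0.71, adjusted p = 0.00414). Between treatments over all days 0 of the 23 passed in limma, against 0.752% of all genes. In the difference in slope 0 passed, against 0.0652%. At an unadjusted p under 0.05, 3 were higher and 4 lower over all days, against 6.18% and 6.52% of all genes. In the difference in slope 2 pointed up and 0 down, against 5.52% and 5.74%. Cdx2, a caudal factor, did not pass (0.09 with vitamin C, adjusted p = 0.589). Of 5 ParaHox and Evx genes 0 passed in limma in any comparison, and 0 to 2 had an unadjusted p under 0.05, where 11.3% to 24.9% of all genes did.

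Of 31 other transcription factors that mark position or type of mesenchyme, 1 fell with vitamin C, near the 3.39% of all genes. It was Prrx1 (-0.39 per day, adjusted p = 0.00719), which also fell without it (-0.50, adjusted p = 0.00637). In untreated cells Twist2 fell (-0.40, adjusted p = 0.0143) and Msx1 rose (0.31, adjusted p = 0.0437), where 0.968% of all genes fell and 0.782% rose. Over all days 0 of the 31 passed in limma. At an unadjusted p under 0.05, 7 were lower and 1 was higher, against 6.52% and 6.18% of all genes. In all 25 were below 0 with a median of -0.11, against 51.8% of all genes and a median of -0.01. The median daily difference of the 31 was -0.12 on day 3 and -0.21 on day 6.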

How the data were processed

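The deposited table holds 28853 probe sets on 8 Affymetrix whole-transcript arrays, each labelled from 100 ng RNA per the labels' protocols. Its values come from RMA run by the authors in Partek, as the submitters' processing notes name them, with no options or build stated in the sources used here. The deposited numbers were read as log2, since their maximum (13.8) is too high for a natural log of a 16-bit reading. For each of 19938 genes with a single symbol, the probe set with the highest mean was used. All tests used limma 3.58.1 under R 4.3.3 with moderated variances, two-sided, and p-values were adjusted by Benjamini-Hochberg over the 19938 genes at a threshold of 0.05. The treatment term stood beside day as a factor with 4 levels. Slopes and their difference came from 1 model with a slope on day per treatment, which did not pair arrays. The code was tested on simulated data. The members, the lists and the tests were chosen with earlier results of these data known. Every Hox gene could be named, those past the threshold or changed at least 2-fold from day 3 to day 6 array by array. Of other lists, members past the threshold were named, up to 6 per list, and a few preset genes such as Meis1, Kmt2a and Cdx2.

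Arrays of one day pair across treatments by design, and deviations from the treatment means had same-day correlations of 0.371 (day 3), 0.180 (day 4), 0.125 (day 5) and 0.475 (day 6). Pairs of different days ran from -0.412 (untreated day 6, vitamin C day 3) to 0.272 (untreated day 6, vitamin C day 5). The latter is above the same-day values of days 4 and 5.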

Additional observations from a re-analysis of the deposited data

Results flagged for a closer look

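The vitamin C array of day 6 stood apart for Hoxc10, with 4.42 on the log2 scale against 5.67 to 5.92 in the other 3 vitamin C arrays. Its gap to the next array was 0.837 of the range of the 4, above the limit that Dixon's test sets for 4 values. Of 74 groups of 4 arrays checked (37 genes in 2 treatments), 1 was picked out in this way, where chance picks out about 1 in 20. The 4 arrays are different days, so a value that changes with time can be picked out as well.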

How the results depend on the processing

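Counts of Hox genes past the threshold rested on few arrays. For falls with vitamin C over time, 7 of 37 as given, the count was 10 with array medians subtracted, 10 without genes below the median level, 9 with quantile normalization or with trend and robust options, 11 at a threshold of 0.10, 2 from that treatment alone, 0 with the marker mean as covariate, and 1 to 7 with each array left out. For the difference over days the count of 1 became 0 with day left out of the model (no replicate block), 0 with the marker mean in place of day, 0 without genes below the median level (which leaves Hoxc5 out), and 0 to 1 with a day left out. For untreated slopes it was 1 instead of 0 (Hoxb9) without genes below the median level, with trend and robust options and at a threshold of 0.10, and 0 with each array left out. For the difference in slope it was 0 in all 16 alternatives, day as a factor (replicate block) included. The difference in slope of Hoxc10 turned to 0.056 without the vitamin C array of day 6. The other estimates of single Hox genes that were recomputed, those at an unadjusted p under 0.05 between treatments, in untreated slopes or in the difference in slope and those past the threshold or of Hoxc5 in slopes with vitamin C, kept their sign in every alternative run, as did the 4 medians.

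Over all genes the calls moved as well. The 150 genes called between treatments became 17 with day left out, 12 with the marker mean, 255 without genes below the median level, 376 with trend and robust options, 384 at a threshold of 0.10, 291 with day as a number, and 3 to 286 with a day left out. The 1722 called for slopes with vitamin C became 11 with the marker covariate, 879 from that treatment alone, 2917 at a threshold of 0.10, and 270 to 1680 with an array left out. The 349 called for untreated slopes became 0 with that covariate, 670 without genes below the median level, 782 with trend and robust options, 773 at a threshold of 0.10, and 8 to 530 with an array left out, and the 13 for the difference in slope ran from 0 to 80.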
